A study of Mus musculus with 30 samples.

Results

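The day 2 library of brown preadipocytes that lack the glucocorticoid receptor (Cre D2) was set against the 4 hour library of the same line (Cre 4h), gene by gene across the transcriptome. The cells were brown preadipocytes from the interscapular fat of newborn C57BL/6J pups carrying GR flox/flox, that is, loxP sites in both copies of Nr3c1, the gene of the receptor. They had been immortalised with SV40T, infected with a retrovirus that expresses Cre recombinase, and plated 4 days before induction. At confluence they were given 2 µg/ml dexamethasone, 0.02 µM insulin, 0.5 mM IBMX, 0.125 mM indomethacin and 1 nM T3 for 4 hours, so both libraries share the deletion, the T antigen and the inducing mix. How the cells were fed after those 4 hours is not given in the sources used. Cre cells before induction (D0) and on day 7 (D7), and cells with the control retrovirus (Vec), whose receptor gene is intact, are used only for context. Each genotype is 1 retrovirally infected line, and whether it is 1 clone is not stated. Each group is 1 library, so no difference below has a replicate check and no test was made.

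Genes were compared when their RPKM, a read density per unit of transcript and of sequencing depth, reached 1 in at least 1 of the 2 libraries. This held for 12201 of 23109 genes, of which 11162 reached it at both times, 533 at Cre D2 only and 506 at Cre 4h only. Zfp808 lay just inside the limit with an RPKM of 0.884 at Cre D2 and 1.00 at Cre 4h, and Lims2 just outside with 0.313 at Cre D2 and 0.999 at Cre 4h. Differences are log2(RPKM + 1) at Cre D2 minus that at Cre 4h. A gene is called at least 2-fold higher or lower when this difference reaches 1 in size, so that weakly expressed genes need a larger ratio to be called. Counts and medians of gene lists cover compared members only. Members that reach the limit at a single time enter through the time where they are higher, so their direction is partly set by the limit.

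Preadipocytes become adipocytes in steps. An early rise of the transcription factors C/EBP-beta and C/EBP-delta is followed by PPAR-gamma and C/EBP-alpha, which maintain each other and act on genes of fatty acid uptake, triglyceride synthesis and the lipid droplet. Of the inducing agents, dexamethasone binds the glucocorticoid receptor, IBMX blocks phosphodiesterases and so raises cAMP, T3 acts through thyroid hormone receptors, and indomethacin blocks cyclooxygenases and can activate PPAR-gamma. Brown adipocytes also carry many mitochondria and can dissipate energy as heat through Ucp1.

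The Cre D2 library held 26.5 M reads and the Cre 4h library 7.71 M, the deepest and the shallowest of the Cre line. At the median transcript length a count of 3 reads, taken as the detection floor, is an RPKM of 0.0448 at Cre D2 and 0.154 at Cre 4h. Intervals on ratios are 95% exact conditional binomial intervals on the reads, and they and the floor cover counting error only. Nr3c1 had an RPKM of 8.07 at Cre D2 and 4.04 at Cre 4h, against 21.3 at Vec D2 and 12.9 at Vec 4h. Since only the loxP-flanked exons are lost and a count per transcript also holds the remaining exons, this value does not check the deletion. Markers of other cell types were low: 1 of 11 macrophage markers, 2 of 10 endothelial, 4 of 12 skeletal muscle, 4 of 10 Schwann and neural, and 1 of 10 epithelial markers reached the RPKM limit. Their summed RPKM at Cre D2 and Cre 4h was 2.14 and 2.27 for macrophages, 19.6 and 22.4 for endothelium, 15.6 and 16.7 for muscle, 11.4 and 27.2 for Schwann and neural cells, and 0.515 and 31.7 for epithelium, the last almost all from Sprr1a. The macrophage markers Adgre1, Tyrobp and C1qa and the epithelial keratins Krt14 and Krt18 had no read in either library. The part of these markers in the results was not tested.

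By size, 722 genes (5.92%) were at least 2-fold higher at Cre D2 and 888 (7.28%) at least 2-fold lower, 1610 in all (13.2%). The counts for gene lists and families below are to be read beside these shares. Which direction held more genes turned under a single scaling: relative to the reads of the chosen accessions, 853 were higher and 798 lower. With TMM scaling 688 were higher and 906 lower, and with the median of ratios 662 and 927. The median difference over all genes compared was 0.04 and 86.8% of them stayed within 2-fold. Past 4-fold were 150 genes higher and 190 lower, and past 8-fold 53 higher and 47 lower, so the counts past 8-fold were about alike in each direction. The largest gains went further than the largest losses, with differences from -4.625 to 7.18. In bulk RNA, fewer cells of a type and less RNA per cell cannot be told apart. Adipocyte genes led the gains, of which the 14 largest were Adipoq, Aldh1a7, G0s2, Fabp4, Plin1, Acsl1, Car3, Cidec, Cd36, Col15a1, Gpat3, Agpat2, Fabp5 and Arxes2. The 14 largest losses were Thbd, Sprr1a, Ly6c1, Apod, Ramp3, Tnfrsf11b, Crabp1, Fgl2, Inhba, Gpnmb, Vdr, Ifit3, Crip1 and Iigp1.

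**Figure D1:**
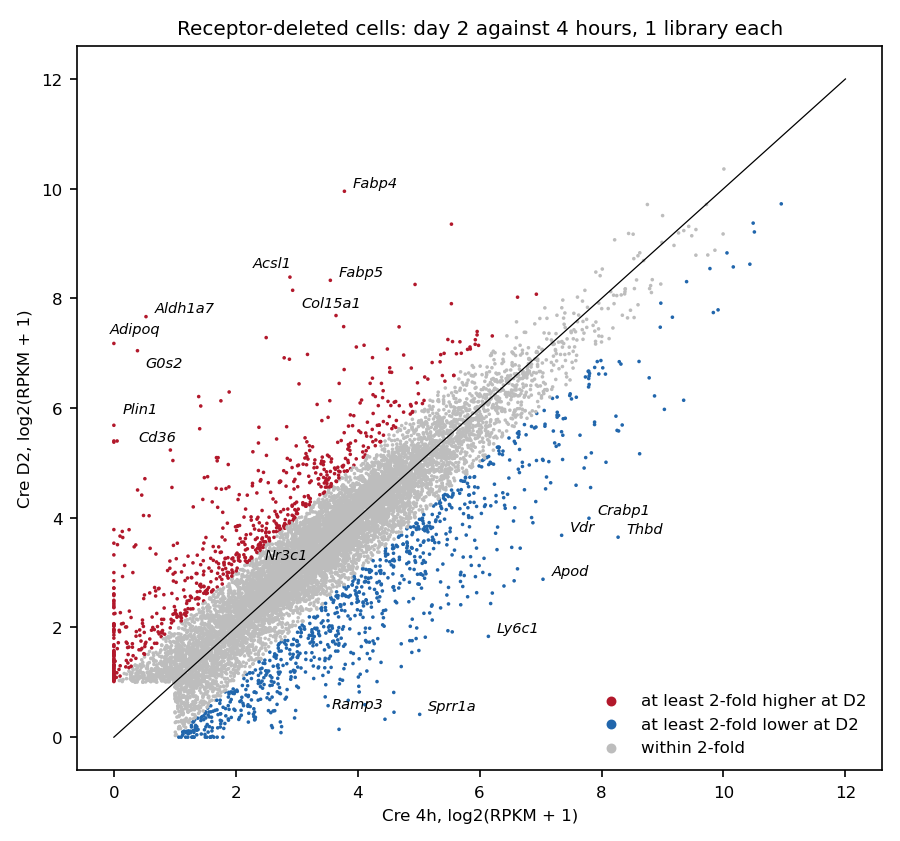
Levels of the 12201 genes compared, with log2(RPKM + 1) at Cre 4h on the horizontal and at Cre D2 on the vertical axis, 1 point a gene and 1 library an axis. The line marks equal levels: 722 genes lie at least 2-fold above it (red) and 888 at least 2-fold below it (blue), with Adipoq, Fabp4 and Plin1 far above and Thbd and Ramp3 far below.

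The most abundant transcripts changed places. Fth1, the ferritin heavy chain, led at Cre D2 with an RPKM of 1312, against 1028 at Cre 4h. Fabp4, the fatty acid binding protein of adipocytes, came next at Cre D2 with 989.9, against 12.8 at Cre 4h, and Lpl, the lipase that frees fatty acids from lipoproteins, reached 653 at Cre D2, against 45.4 at Cre 4h. At 4 hours the top of the list was matrix: Bgn (biglycan) had an RPKM of 844 at Cre D2 and 1974 at Cre 4h, Sparc 592 at Cre D2 and 1454 at Cre 4h, and Col1a1 662 at Cre D2 and 1434 at Cre 4h. Thus Fabp4 and Lpl, but not Sparc, were among the 10 most abundant at Cre D2, while Bgn, Col1a1 and Fth1 were among them at both times.

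Adipogenic transcription factors were higher at Cre D2 as a group, with 11 of 19 compared members at least 2-fold higher, 1 lower, and a median difference of 1.03 beside 0.04 over all genes. Cebpa (C/EBP-alpha) had an RPKM of 205 at Cre D2 and 11.5 at Cre 4h, 17.8-fold higher (interval 15.7 to 20.4). Pparg, the gene of PPAR-gamma, had 33.7 at Cre D2 and 10.6 at Cre 4h, 3.19-fold higher (interval 2.70 to 3.80), and its partner Rxra had 39.3 at Cre D2 and 13.4 at Cre 4h. Both receptor genes had thus moved far less than Cebpa. Klf15 had 6.85 at Cre D2 and 0.962 at Cre 4h, Nr1h3, the gene of the oxysterol receptor LXR-alpha, 3.54 at Cre D2 and 0.216 at Cre 4h, and Srebf1, a regulator of lipid synthesis, 50.2 at Cre D2 and 14.1 at Cre 4h. Ebf1, Stat5a, Zfp423, Zbtb16 and Klf9 also passed 2-fold, with differences from 1.01 to 1.32.

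The early C/EBP factors did the reverse or stayed. Cebpd (C/EBP-delta) was the member at least 2-fold lower, with an RPKM of 11.3 at Cre D2 and 48.2 at Cre 4h. Cebpb (C/EBP-beta) had 77.0 at Cre D2 and 85.1 at Cre 4h, a difference of -0.14. Over D0, 4h, D2 and D7 the Cre line had an RPKM of 10.5, 48.2, 11.3 and 14.3 for Cebpd, of 29.3, 85.1, 77.0 and 50.8 for Cebpb, of 5.97, 11.5, 205 and 83.2 for Cebpa, and of 5.09, 10.6, 33.7 and 32.1 for Pparg. Cebpd therefore peaked at 4 hours, Cebpa at day 2, and Pparg was about level between days 2 and 7.

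Among 16 genes that restrain adipogenesis 4 were at least 2-fold lower at Cre D2, 1 was higher, and the median difference was -0.34. Id3 and Id2, inhibitors of helix-loop-helix factors, had an RPKM of 50.7 and 18.4 at Cre D2, against 323 and 59.1 at Cre 4h. Gata2, a repressor of Pparg, had 2.21 at Cre D2 and 7.20 at Cre 4h, and the ligand Wnt5a 5.87 at Cre D2 and 14.03 at Cre 4h. The exception was Tcf7l2, a mediator of Wnt signals, with 11.2 at Cre D2 and 4.00 at Cre 4h. Dlk1, the preadipocyte factor Pref-1, stayed within 2-fold at 91.2 at Cre D2 and 118 at Cre 4h.

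Genes of the lipid droplet and of lipolysis stood out most, with 10 of 13 compared members at least 2-fold higher at Cre D2, none lower, and a median difference of 2.32. The list holds 16 genes, of which 3 lay below the RPKM limit and are not in these figures. Among the genes higher, Plin1, Cidec, G0s2 and Mgll passed the limit through Cre D2 alone, so their direction is partly set by that limit. Plin1, the perilipin that coats adipocyte droplets, had 2566 reads (RPKM 50.5) at Cre D2 and no read at Cre 4h. It was at least 249-fold higher against the floor of 3 reads, with a lower end of the interval of 202. Cidec, which fuses droplets, had 1833 reads (RPKM 40.6) at Cre D2 and none at Cre 4h. It was at least 178-fold higher against the same floor, with a lower end of the interval of 144. G0s2, an inhibitor of the lipase Pnpla2, had an RPKM of 131 at Cre D2 and 0.308, from 2 reads, at Cre 4h, 426-fold higher (interval 118 to 3519). Lipases were higher as well: Lipe (hormone-sensitive lipase) had 69.1 at Cre D2 and 2.38 at Cre 4h, Pnpla2 (adipose triglyceride lipase) 49.2 at Cre D2 and 4.20 at Cre 4h, and Mgll (monoglyceride lipase) 25.2 at Cre D2 and 0.423 at Cre 4h. The droplet proteins found in most cell types moved less or not at all. Plin2 had 151 at Cre D2 and 43.6 at Cre 4h, and Plin3 18.1 at Cre D2 and 22.1 at Cre 4h, within 2-fold. Hilpda, a lipase inhibitor, had 5.24 at Cre D2 and 9.75 at Cre 4h, also within 2-fold.

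For fatty acid uptake and binding, 8 of 13 genes were at least 2-fold higher at Cre D2, 3 were lower, and the median difference was 1.43. Fabp4 was 77.6-fold higher (interval 60.6 to 101), Fabp5 had an RPKM of 321 at Cre D2 and 10.7 at Cre 4h, and Lpl was 14.4-fold higher (interval 13.6 to 15.2). Cd36, the fatty acid translocase, had 3772 reads at Cre D2 and 1 read at Cre 4h, an RPKM of 41.2 at Cre D2 and 0.0376 at Cre 4h, whose ratio has an interval from 197 to 43300. The acyl-CoA synthetases, which activate fatty acids, split. Acsl1 had 334 at Cre D2 and 6.40 at Cre 4h, while Acsl4 had 25.8 at Cre D2 and 136 at Cre 4h and Acsl5 5.84 at Cre D2 and 14.04 at Cre 4h. The third gene lower was Fabp3, with an RPKM of 0.412 at Cre D2 and 2.23 at Cre 4h, from 7 and 11 reads. In its course over D0, 4h, D2 and D7, Acsl4 had 16.7, 136, 25.8 and 13.8, a peak at 4 hours.

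Of 19 genes of fatty acid and triglyceride synthesis 9 were at least 2-fold higher at Cre D2, 1 was lower, and the median difference was 0.92. The genes that esterify glycerol led. Agpat2 had an RPKM of 155 at Cre D2 and 4.65 at Cre 4h, Dgat2 77.4 at Cre D2 and 2.71 at Cre 4h, and Gpd1, which makes glycerol 3-phosphate, 20.3 at Cre D2 and 0.373 at Cre 4h. Gpat3, another acyltransferase of this path, was among the 14 largest gains with 73.0 at Cre D2 and 1.62 at Cre 4h. Genes that make fatty acids themselves differed less: Fasn (fatty acid synthase) had 95.7 at Cre D2 and 46.8 at Cre 4h, Acly 65.4 at Cre D2 and 65.6 at Cre 4h, and the desaturase Scd1 124 at Cre D2 and 192 at Cre 4h. Fads1, a desaturase of polyunsaturated fatty acids, was the member at least 2-fold lower, with 42.8 at Cre D2 and 88.3 at Cre 4h. Pck1, needed to make glycerol from pyruvate, had 214 reads at Cre D2 and none at Cre 4h. It was 20.7-fold higher against the floor of 3 reads, a value above the lower end of its counting interval.

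Secreted adipocyte proteins were higher in 6 of 11 compared genes and lower in none, with a median difference of 1.12. The list holds 15 genes, of which 4 lay below the RPKM limit and are not in these figures. Adipoq (adiponectin) had 4700 reads (RPKM 144) at Cre D2 and none at Cre 4h. It was at least 455-fold higher against the floor of 3 reads, with a lower end of the interval of 370. Rbp4, Cfd and Retn also had no read at Cre 4h, with an RPKM of 6.22, 5.60 and 5.12 at Cre D2. Like Adipoq they passed the RPKM limit through Cre D2 alone, so their direction is partly set by that limit. Of these Cfd (adipsin) was far from its later level: over D0, 4h, D2 and D7 it had 2.88, 0, 5.60 and 966. Angptl4, an inhibitor of lipoprotein lipase, had 73.0 at Cre D2 and 18.5 at Cre 4h. Leptin (Lep) had no read at either time.

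Brown fat genes gave a mixed account. Of 19 genes 12 were compared. Of these 5 were at least 2-fold higher at Cre D2, 1 was lower, and the median difference was 0.84. The other 7 lay below the RPKM limit, among them Ucp1, Cidea and Cox8b, and are not in these figures. Ppargc1b, a coactivator of mitochondrial genes, had an RPKM of 11.5 at Cre D2 and 0.106 at Cre 4h, from 1112 and 3 reads, and Esrra, an orphan receptor that works with it, 24.8 at Cre D2 and 10.4 at Cre 4h. Adrb3, the adrenergic receptor of fat cells, had 185 reads (RPKM 2.50) at Cre D2 and none at Cre 4h, and Ppargc1a 1.35 at Cre D2 and 0.0599 at Cre 4h. Ppargc1b, Adrb3 and Ppargc1a passed the RPKM limit through Cre D2 alone, so their direction is partly set by that limit. The defining genes stayed at or near 0: Ucp1 had 6 reads at Cre D2 and none at Cre 4h, and Cidea none at either time. Cox8b had 1 read at Cre D2 and none at Cre 4h, and an RPKM of 41.2 in the D7 library. Zic1, a factor of brown preadipocytes, was the member lower, with 3.71 at Cre D2 and 15.5 at Cre 4h. Lipid storage genes were thus high at Cre D2 while Ucp1 and Cidea were at or near 0.

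Mitochondrial genes were higher by less. Among 25 genes of the citrate cycle and fatty acid oxidation 9 were at least 2-fold higher at Cre D2, none lower, with a median difference of 0.77. Idh3a, of the citrate cycle, had an RPKM of 105 at Cre D2 and 22.0 at Cre 4h, and the acyl-CoA dehydrogenases Acadm and Acadl, which start fatty acid oxidation, had 38.7 and 78.7 at Cre D2, against 8.23 and 20.4 at Cre 4h. Cpt1a, which admits fatty acids to mitochondria, stayed within 2-fold with 31.2 at Cre D2 and 43.4 at Cre 4h. Of 23 respiratory chain subunits only Cyc1 (133 at Cre D2 and 54.8 at Cre 4h) and Uqcrc2 (38.6 at Cre D2 and 16.1 at Cre 4h) passed 2-fold, yet the median difference was 0.53 and the lowest member's was -0.23. Of 23 cholesterol synthesis genes 4 were higher and 1 was lower, beside 5.92% and 7.28% of all genes, with a median of 0.26. Insig1, which holds back this pathway, had 86.4 at Cre D2 and 11.96 at Cre 4h. Genes of the insulin and IGF pathway were higher in 6 of 21 and lower in 1, among them Igfbp4 with 304 at Cre D2 and 29.7 at Cre 4h and Igf1 with 36.5 at Cre D2 and 8.27 at Cre 4h, while Igfbp6 had 6.79 at Cre D2 and 50.4 at Cre 4h.

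**Figure D2:**
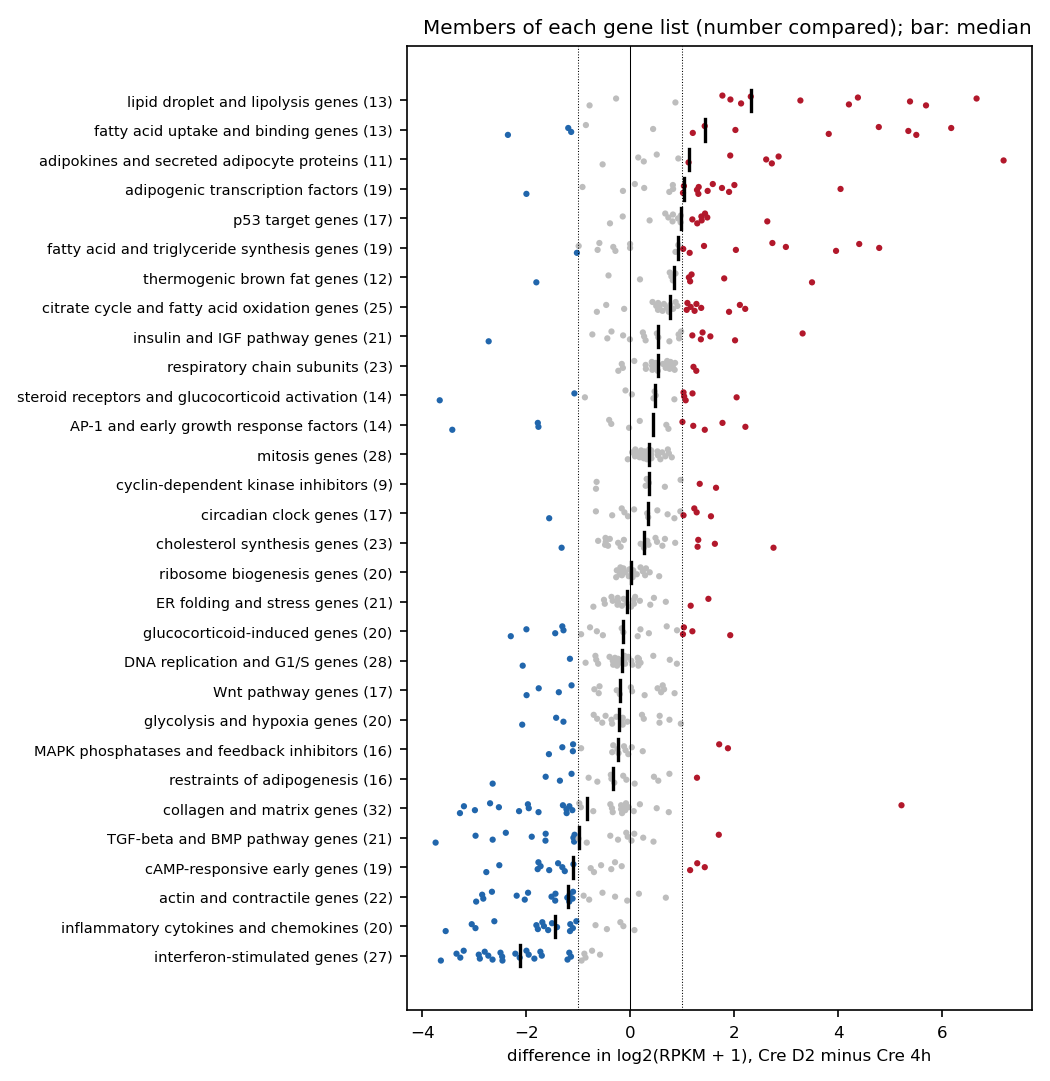
Difference in log2(RPKM + 1), Cre D2 minus Cre 4h, for each compared member of the gene lists with at least 8 compared members, 1 point a gene, with the list's median as a bar and dotted lines at 2-fold. The lists run from lipid droplet genes at the top, with a median of 2.32, to interferon-stimulated genes at the bottom, with a median of -2.13.

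Interferon-stimulated genes made up the list furthest down. All 27 were compared, 22 were at least 2-fold lower at Cre D2, none was higher, and the median difference was -2.13. Their summed RPKM over D0, 4h, D2 and D7 in the Cre line was 1024, 1895, 337 and 1236, so the day 2 library was the lowest of the 4. Ifit3, whose protein limits translation of viral RNA, had an RPKM of 5.76 at Cre D2 and 83.4 at Cre 4h, 14.5-fold lower (interval 12.8 to 16.5). The ubiquitin-like protein gene Isg15 had 22.4 at Cre D2 and 225 at Cre 4h, and Bst2 (tetherin), which holds virus particles at the cell surface, 69.6 at Cre D2 and 650 at Cre 4h. Irf7, a transcription factor of the response, had 6.71 at Cre D2 and 52.7 at Cre 4h. Signal carriers of the pathway differed less: Irf9 had 13.999 at Cre D2 and 26.3 at Cre 4h, within 2-fold, and Stat2 had 19.4 at Cre D2 and 66.7 at Cre 4h. Of the most abundant genes at 4 hours, B2m, the light chain of MHC class I, had 379.9 at Cre D2 and 1143 at Cre 4h, and Ifitm3, which blocks virus entry, 220.4 at Cre D2 and 962 at Cre 4h.

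The windows around the start sites of these genes are shown because many hold the letters of the interferon-stimulated response element, a site bound by interferon-activated factors such as Irf9. A search on both strands for its core, GAAA, any 2 bases and GAAA again, over the stretch from 250 bases before to 50 after the start, found it in 10 of 22 windows of the list (45.5%), against 3.44% of 32851 windows of all genes. Windows come from RefSeq on GRCm38.p6, not the mm9 assembly named by the submitters, and 20 of the 27 genes had one. Each is 5′ to 3′ in the gene's direction, with the matches in capitals and overlapping matches as 1 run. The window of Ifit3 is chr19:34583279-34583578 (plus strand), that of Isg15 chr4:156200769-156201068 (minus), that of Bst2 chr8:71537423-71537722 (minus) and that of Rsad2, the antiviral enzyme viperin, chr12:26456403-26456702 (minus).
Ifit3: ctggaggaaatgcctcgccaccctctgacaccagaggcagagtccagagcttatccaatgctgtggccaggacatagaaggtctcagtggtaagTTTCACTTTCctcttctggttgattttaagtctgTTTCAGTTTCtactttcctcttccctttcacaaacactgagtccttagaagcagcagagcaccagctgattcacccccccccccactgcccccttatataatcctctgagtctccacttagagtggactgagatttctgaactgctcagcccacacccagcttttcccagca
Isg15: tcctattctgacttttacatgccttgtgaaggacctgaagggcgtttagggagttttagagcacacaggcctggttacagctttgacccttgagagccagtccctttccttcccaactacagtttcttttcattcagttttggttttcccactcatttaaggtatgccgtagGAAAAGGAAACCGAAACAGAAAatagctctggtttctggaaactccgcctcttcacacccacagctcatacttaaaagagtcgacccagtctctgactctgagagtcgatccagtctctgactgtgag
Bst2: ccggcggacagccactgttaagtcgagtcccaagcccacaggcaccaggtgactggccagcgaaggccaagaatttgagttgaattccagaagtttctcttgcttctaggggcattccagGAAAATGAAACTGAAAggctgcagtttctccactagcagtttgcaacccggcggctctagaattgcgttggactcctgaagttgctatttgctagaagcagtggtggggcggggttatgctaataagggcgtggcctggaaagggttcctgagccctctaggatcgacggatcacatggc
Rsad2: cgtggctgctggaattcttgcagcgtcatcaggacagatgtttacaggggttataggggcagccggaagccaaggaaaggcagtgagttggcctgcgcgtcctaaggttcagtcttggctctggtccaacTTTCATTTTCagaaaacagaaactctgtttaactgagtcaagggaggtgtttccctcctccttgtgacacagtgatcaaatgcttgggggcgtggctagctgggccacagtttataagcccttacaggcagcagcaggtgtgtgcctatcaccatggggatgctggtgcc
The matches begin between 156 and 66 bases before the start site in these 4 windows. A match of letters is a description, and no binding was measured here. Rsad2 had an RPKM of 1.22 at Cre D2 and 15.5 at Cre 4h, 12.7-fold lower (interval 10.4 to 15.7). Of the 6 other searches, each on the same windows and both strands, the CRE (TGACGTCA) was in 13.6% of 22 windows of cAMP-responsive genes against 1.79% of all. TTTGAA, the CHR, was in 76% of 25 windows of mitosis genes against 17.9%, CCAAT in 84% of them against 37.4%, and TTTNNCGC, an E2F site, in 46.2% of 26 windows of replication and G1/S genes against 5.17%. The SRE (TCACNCCAC) was in 0 of 18 windows of cholesterol genes against 1.24% of all, and the PPAR-RXR core, AGGTCA, any base and AGGTCA again, in 0 of 22 windows of lipid droplet genes against 0.0396%. Both were rare over all windows, in 408 and 13 of 32851, so finding none in so few windows carries little weight. The interferon-stimulated genes with a match were not all far down: Cxcl10, with 1 match, had 21.0 at Cre D2 and 32.0 at Cre 4h, within 2-fold.

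Inflammatory cytokines and chemokines were lower in 15 of 20 compared genes and higher in none, with a median difference of -1.46. Il6 (interleukin 6) had 3 reads (RPKM 0.104) at Cre D2 and 100 reads (RPKM 11.9) at Cre 4h, 115-fold lower (interval 38.1 to 566). Ccl2, a chemokine that draws monocytes, had an RPKM of 7.02 at Cre D2 and 65.4 at Cre 4h, and Ptgs2, the inducible cyclooxygenase, 2.97 at Cre D2 and 30.3 at Cre 4h. Vcam1, an adhesion molecule, had 14.4 at Cre D2 and 93.1 at Cre 4h. Nfkbia and Tnfaip3, feedback inhibitors of NF-kB, stayed within 2-fold with 19.2 and 1.48 at Cre D2, against 21.2 and 1.35 at Cre 4h. Over D0, 4h, D2 and D7 the RPKM of Il6 was 0.725, 11.9, 0.104 and 1.64, and that of Ccl2 was 31.2, 65.4, 7.02 and 44.6.

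Genes known to respond early to cAMP were more often lower than higher at Cre D2. Of 19 compared, 10 were at least 2-fold lower at Cre D2, 3 were higher, and the median difference was -1.09. The orphan receptors Nr4a2 and Nr4a3 had an RPKM of 1.69 and 0.941 at Cre D2, against 17.4 and 10.1 at Cre 4h. Crem, whose short form represses cAMP-responsive genes, had 2.92 at Cre D2 and 12.5 at Cre 4h, and the cAMP phosphodiesterase Pde4d 14.1 at Cre D2 and 35.0 at Cre 4h. Areg (amphiregulin, a growth factor) had 8 reads at Cre D2 and 29 reads at Cre 4h, 12.5-fold lower (interval 5.56 to 31.6). Rgs2 and Nr4a1, which belong to the same list, stayed within 2-fold, with 28.1 and 18.2 at Cre D2, against 34.6 and 30.2 at Cre 4h. The members higher were Fos, Btg2 and Ppargc1a. Fos had 8.56 at Cre D2 and 2.54 at Cre 4h, and Btg2, which restrains proliferation, 18.5 at Cre D2 and 6.99 at Cre 4h.

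The AP-1 and early growth response factors divided, with 5 of 14 at least 2-fold higher at Cre D2, 3 lower, and a median difference of 0.44. Egr1 had an RPKM of 124 at Cre D2 and 25.98 at Cre 4h, and Egr2 11.1 at Cre D2 and 2.54 at Cre 4h. In the other direction, Maff had 1.99 at Cre D2 and 31.1 at Cre 4h, 15.6-fold lower (interval 12.5 to 19.7), and Fosl2, a Fos-related subunit of AP-1, 29.6 at Cre D2 and 103 at Cre 4h. Among 16 MAPK phosphatases and feedback inhibitors 2 were higher and 4 lower, beside 5.92% and 7.28% of all genes. Spry4 had 15.1 at Cre D2 and 3.39 at Cre 4h, while Socs2 had 11.1 at Cre D2 and 34.7 at Cre 4h.

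**Figure D3:**
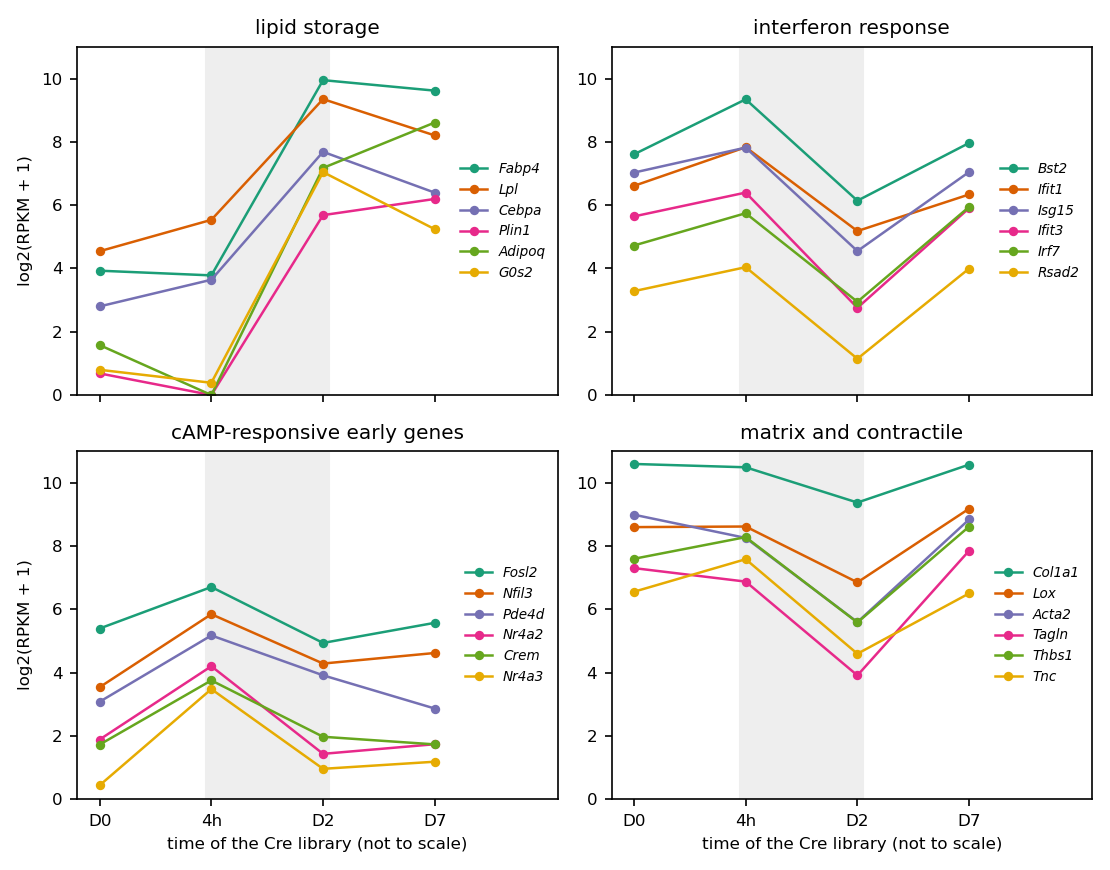
Courses of 24 genes in the Cre line in log2(RPKM + 1) over D0, 4h, D2 and D7, 1 library a time, with the step from 4h to D2 shaded and times not to scale. Lipid storage genes climb in the shaded step (Fabp4 reaches an RPKM of 989.9), cAMP-responsive genes drop from their 4 hour peak, and interferon, matrix and contractile genes dip at D2 and are higher again at D7.

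Collagen and matrix genes were lower in 14 of 32 compared and higher in 1, with a median difference of -0.83, and their summed RPKM was 7073 at Cre D2 and 12194 at Cre 4h. Among the lowest were Col8a1, a short-chain collagen, with 6.80 at Cre D2 and 70.7 at Cre 4h, and Tnc (tenascin C) with 23.1 at Cre D2 and 191 at Cre 4h. Lox, which crosslinks collagen, had 114 at Cre D2 and 391 at Cre 4h. The fibrillar collagen genes were lower by less or within 2-fold, with Col1a1 2.17-fold lower (interval 2.14 to 2.19) and Col3a1 at 564 at Cre D2 and 713 at Cre 4h. The exception was Col15a1, a collagen of basement membranes, with 283 at Cre D2 and 6.64 at Cre 4h, 42.6-fold higher (interval 37.8 to 48.1). The type VI collagens Col6a1 and Col6a2 stayed within 2-fold, with 727 and 580.3 at Cre D2, against 511 and 347 at Cre 4h.

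The actin and contractile genes were lower in 15 of 22 and higher in none, with a median difference of -1.19. Tagln (transgelin) had an RPKM of 14.03 at Cre D2 and 116 at Cre 4h, Myl9, a myosin light chain, 15.0 at Cre D2 and 115 at Cre 4h, and Acta2 (smooth muscle actin) 47.3 at Cre D2 and 304 at Cre 4h. Actb, the cytoplasmic actin, stayed within 2-fold at 609.8 at Cre D2 and 747 at Cre 4h, and Srf, the factor that drives many genes of the list, had 14.8 at Cre D2 and 8.81 at Cre 4h. Over D0, 4h, D2 and D7, Acta2 had 507, 304, 47.3 and 457 and Tagln 157, 116, 14.03 and 229.6, so day 2 was a low point and not the end of a decline.

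Of 21 TGF-beta and BMP pathway genes, whose ligands act through Smad proteins, 10 were at least 2-fold lower at Cre D2, 1 was higher, and the median difference was -0.995. Inhba, the subunit of activin A, had an RPKM of 4.41 at Cre D2 and 71.5 at Cre 4h, 16.2-fold lower (interval 13.8 to 19.2), and the ligand Tgfb3 had 5.71 at Cre D2 and 51.8 at Cre 4h. Grem1, which binds BMPs, had 17.2 at Cre D2 and 94.4 at Cre 4h, and the inhibitory Smad7 2.93 at Cre D2 and 13.6 at Cre 4h. Tgfb2 was the member higher, with 16.5 at Cre D2 and 4.39 at Cre 4h. The receptors Tgfbr1, Tgfbr2, Bmpr1a and Bmpr2 and the signal carriers Smad3 and Smad4 stayed within 2-fold. Of 17 Wnt pathway genes none was higher and 4 were lower, among them Wnt11 with 0.243 at Cre D2 and 3.96 at Cre 4h, from 18 and 85 reads, and Dkk3 with 8.11 at Cre D2 and 29.9 at Cre 4h.

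Few mitosis, replication or G1/S genes passed 2-fold. Of 28 mitosis genes none passed 2-fold in either direction. Their median difference was 0.36, beside 0.04 over all genes, with a range from -0.05 to 0.80. Mki67, a proliferation marker, had an RPKM of 31.2 at Cre D2 and 18.5 at Cre 4h. Of 28 DNA replication and G1/S genes 2 were lower, near the share of 7.28% over all genes. They were Ccnd1 (cyclin D1), with 1.97 at Cre D2 and 11.5 at Cre 4h, and Tyms, which makes thymidylate, with 9.08 at Cre D2 and 21.5 at Cre 4h. Ccnd2 (cyclin D2) had 108 at Cre D2 and 57.9 at Cre 4h, within 2-fold. Of 9 cyclin-dependent kinase inhibitors and pocket proteins, Cdkn2c, with 58.8 at Cre D2 and 18.1 at Cre 4h, and Rb1, with 9.24 at Cre D2 and 3.06 at Cre 4h, were at least 2-fold higher. The T antigen in these cells binds the proteins of both the retinoblastoma family and p53. Among 17 p53 target genes 7 were higher and none lower, with a median of 0.97: Gdf15, a stress cytokine, had 34.2 at Cre D2 and 4.67 at Cre 4h, and Mdm2, which degrades p53, 87.1 at Cre D2 and 30.6 at Cre 4h.

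Other groups differed by less. Over all genes 5.92% were at least 2-fold higher at Cre D2 and 7.28% lower. None of 20 ribosome biogenesis genes passed 2-fold, and their median difference was 0.01. Of 21 genes of folding and stress in the endoplasmic reticulum 2 were higher, Trib3 with 32.6 at Cre D2 and 10.9 at Cre 4h and Ppp1r15a with 24.0 at Cre D2 and 10.2 at Cre 4h, and the median was -0.07. Glycolysis and hypoxia genes had 3 of 20 lower and none higher, among them Slc16a3, a lactate exporter, with 1.43 at Cre D2 and 9.26 at Cre 4h and Pkm, a pyruvate kinase, with 105 at Cre D2 and 258 at Cre 4h. Of 17 clock genes 4 were higher and 1 lower, with Per3 at 11.3 at Cre D2 and 3.20 at Cre 4h. Gapdh, Pgk1 and Pgam1 had an RPKM under 9 in both libraries, far below the other enzymes of their path; no source used here says how reads that match several copies were counted, so values of genes with near-identical copies are uncertain.

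Glucocorticoid-induced genes went both ways in the receptor-deleted line, with 4 of 20 compared higher at Cre D2, 5 lower, and a median difference of -0.15. Mt1 and Mt2, metallothioneins whose near-identical sequences make single values uncertain, had an RPKM of 114 and 32.4 at Cre D2, against 312 and 163 at Cre 4h. Sgk1, a kinase, had 5.37 at Cre D2 and 14.5 at Cre 4h, and Dusp1, a MAPK phosphatase, 6.50 at Cre D2 and 17.6 at Cre 4h. The canonical targets Fkbp5 and Tsc22d3 were within 2-fold, with 15.4 and 21.7 at Cre D2, against 26.99 and 18.8 at Cre 4h. The Vec libraries had 127 and 103 at Vec D2, against 242 and 153 at Vec 4h, for the same genes. Among 14 nuclear receptor, enzyme and chaperone genes of the steroid list 5 were higher and 2 lower. Hsd11b1, the enzyme that makes active glucocorticoid, had 3.92 at Cre D2 and 0.193, from 2 reads, at Cre 4h, and Vdr, the vitamin D receptor, had 11.8 at Cre D2 and 162 at Cre 4h, 13.7-fold lower (interval 12.9 to 14.5).

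Several of the largest losses belong to no pathway above. Thbd (thrombomodulin), a cell surface cofactor of thrombin, had an RPKM of 11.5 at Cre D2 and 308 at Cre 4h, 26.7-fold lower (interval 25.1 to 28.5). Ramp3, a partner of the calcitonin receptor family, had 12 reads at Cre D2 and 218 reads at Cre 4h, 62.5-fold lower (interval 35.1 to 123). Both, with Vdr and Tnfrsf11b, were peaks of 4 hours: over D0, 4h, D2 and D7 the RPKM was 23.1, 308, 11.5 and 18.0 for Thbd, 0.918, 23.2, 0.371 and 0.630 for Ramp3, 16.8, 162, 11.8 and 10.8 for Vdr, and 2.12, 20.8, 0.254 and 1.98 for Tnfrsf11b. Sprr1a, a gene of squamous epithelium, had 44.1, 31.4, 0.334 and 20.5 over the same times, Ly6c1, a surface antigen, 42.4, 69.7, 2.57 and 28.3, and Gpnmb, a transmembrane glycoprotein, 77.4, 93.7, 6.21 and 47.4. These 3 were therefore high before induction and lowest at D2. Crabp1, a binding protein for retinoic acid, had 129, 221, 14.9 and 37.9, and Apod, a lipid carrier, 16.1, 131, 6.36 and 52.2.

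Some of the largest gains were temporary too. Aldh1a7, an aldehyde dehydrogenase, had an RPKM of 202 at Cre D2 and 0.441, from 7 reads, at Cre 4h, 459-fold higher (interval 223 to 1141), and over D0, 4h, D2 and D7 it had 1.39, 0.441, 202 and 10.1. Fabp5 had 10.2, 10.7, 321 and 24.7 and Acsl1 5.92, 6.40, 334 and 52.7 over the same times. By contrast Adipoq with 1.99, 0, 144 and 391 and Car3, a carbonic anhydrase of muscle and fat, with 0.706, 0, 41.2 and 241 were higher still at D7.

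The same step was read in the control line, whose libraries are separate from those of the Cre line. There 1223 of 12046 genes (10.2%) were at least 2-fold higher at Vec D2 than at Vec 4h and 1173 (9.74%) at least 2-fold lower, with a median difference of 0.19; with TMM scaling 922 were higher and 1390 lower in Vec. Of the genes higher in Cre, 514 were also higher in Vec, 71.2% of the Cre set and 42.0% of the Vec set. Of those lower in Cre, 683 were also lower in Vec, 76.9% of the Cre set and 58.2% of the Vec set. Across 12420 genes compared in either line the differences had a Pearson r of 0.84; both lines share the mix, the gene lengths and the RPKM scale, and genes are not independent replicates, so this is a description. Lipid droplet genes had a median of 2.32 in Cre and 2.71 in Vec, adipogenic factors 1.03 in Cre and 1.53 in Vec, interferon-stimulated genes -2.13 in Cre and -2.51 in Vec, and citrate cycle and fatty acid oxidation genes 0.77 in Cre and 1.24 in Vec. The widest gap between medians in the lists plotted was in matrix genes, with -0.83 in Cre and -1.73 in Vec, where 14 of 32 were lower in Cre and 23 of 32 in Vec.

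**Figure D4:**
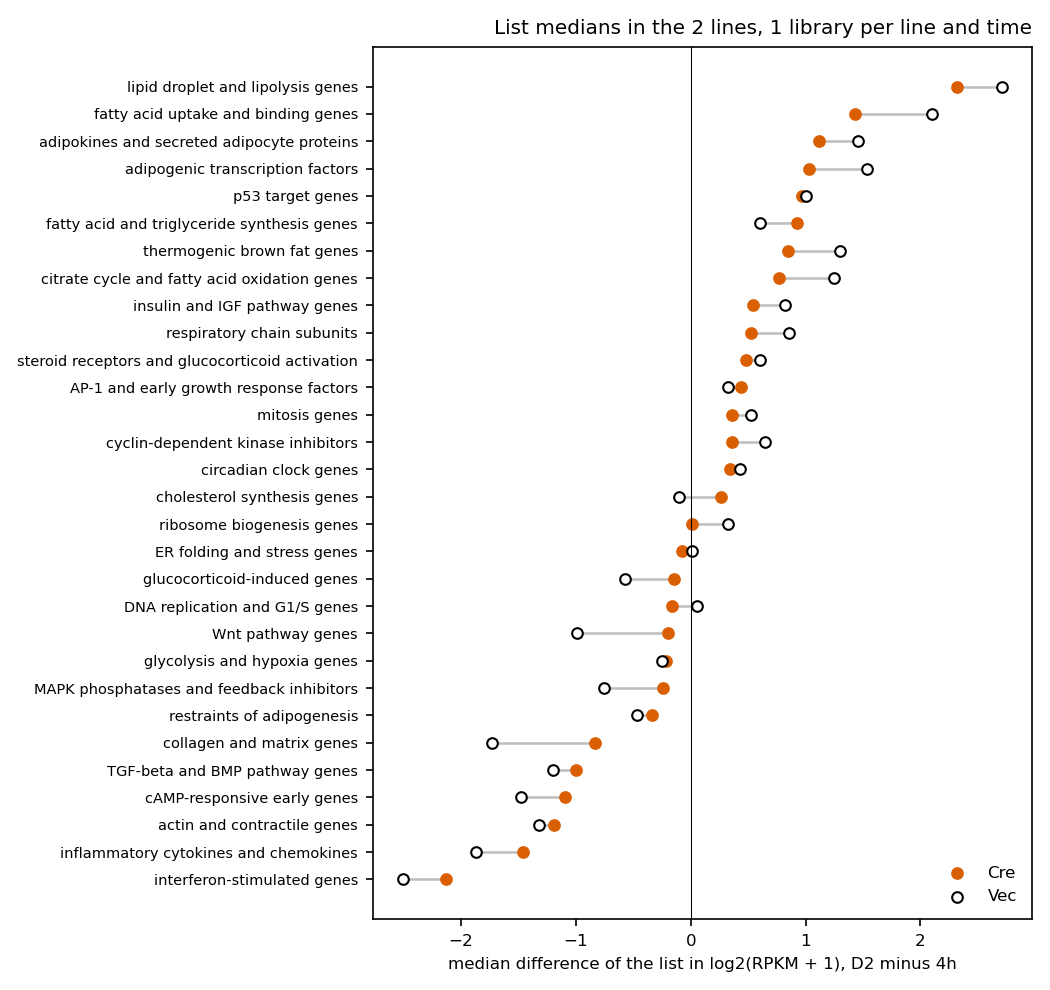
Median difference in log2(RPKM + 1), D2 minus 4h, of each gene list with at least 8 compared members, in the Cre line (filled) and the Vec line (open), 1 library per line and time. Most medians lie on the same side of 0 in both lines; those of matrix genes (-0.83 in Cre, -1.73 in Vec) and Wnt pathway genes (-0.20 in Cre, -0.99 in Vec) lie furthest apart.

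The difference between both responses, Cre minus Vec, reached at least 1 in 407 of 12420 genes (3.28%) and at most -1 in 226 (1.82%); with TMM scaling these counts were 551 and 163. Of the 407, 243 were at least 2-fold lower at D2 in Vec, beside 9.74% of all genes compared in Vec. The Vec response is part of the rule that picked the 407, so this share is partly set by the rule. Matrix and Wnt antagonist genes were among those kept higher in Cre. Sfrp4, a secreted Wnt antagonist, had an RPKM of 15.2 at Cre D2 and 23.7 at Cre 4h, against 0.512 at Vec D2 and 21.4 at Vec 4h. Lum (lumican) and Dcn (decorin, chosen after its values were seen), small proteoglycans, had 10.2 and 97.8 at Cre D2 and 8.82 and 109 at Cre 4h, against 1.10 and 19.5 at Vec D2 and 13.0 and 153 at Vec 4h. In the Vec line these 3 genes were thus at least 4-fold lower at D2 while in the Cre line they were within 2-fold. Ccn3, a matricellular protein, was lower in both lines, with 18.6 at Cre D2 and 120.2 at Cre 4h, against 1.41 at Vec D2 and 115 at Vec 4h. Pfkfb3, a regulator of glycolysis, had 25.9 at Cre D2 and 1.90 at Cre 4h, against 12.6 at Vec D2 and 11.7 at Vec 4h. For Tmem119 and Pmvk, a kinase of cholesterol synthesis, the gap lay at 4 hours: they had 11.9 and 14.04 at Cre D2 and 22.2 and 15.4 at Cre 4h, against 14.5 and 13.6 at Vec D2 and 234 and 116 at Vec 4h.

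Of the 226 genes with a lower response in Cre, 144 were at least 2-fold higher at D2 in the Vec line, beside 10.2% of all genes compared there. This share too is partly set by the rule, which contains the Vec response. Arhgap36 had 1.501 at Cre D2 and 2.35 at Cre 4h, against 16.6 at Vec D2 and 1.42 at Vec 4h. Map7d2, a microtubule-associated protein, was higher in both lines, with 2.79 at Cre D2 and 0.0673, from 2 reads, at Cre 4h, against 26.4 at Vec D2 and 0.571 at Vec 4h. Its plain ratios were alike, 41.4-fold in Cre (interval 11.4 to 344) and 46.2-fold in Vec (interval 31.7 to 70.2), so its lower response in Cre rests on the pseudocount of 1. Hsd11b2, which inactivates glucocorticoids, had 0.612 at Cre D2 and 0.140 at Cre 4h, against 7.01 at Vec D2 and no read at Vec 4h. Retnla and Orm3 followed this pattern with under 1 RPKM at Cre D2, against 12.5 and 4.30 at Vec D2. Tnfrsf11b (osteoprotegerin), a decoy receptor for RANKL, was lower in both lines: it had 0.254 at Cre D2 and 20.8 at Cre 4h, against 0.0123, from 1 read, at Vec D2 and 1.30 at Vec 4h. Its plain ratios were 81.9-fold lower in Cre (interval 51.8 to 137) and 106-fold lower in Vec (interval 18.1 to 4276), and their intervals overlap, so its lower response in Cre rests on the pseudocount too. Slc37a2 had 3.06 at Cre D2 and 28.1 at Cre 4h, against 2.29 at Vec D2 and 4.39 at Vec 4h. Ifi207 had 2.20 at Cre D2 and 11.9 at Cre 4h, against 22.4 at Vec D2 and 22.8 at Vec 4h. With 1 library in each of the 4 groups, none of these differences between the lines was tested.

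**Figure D5:**
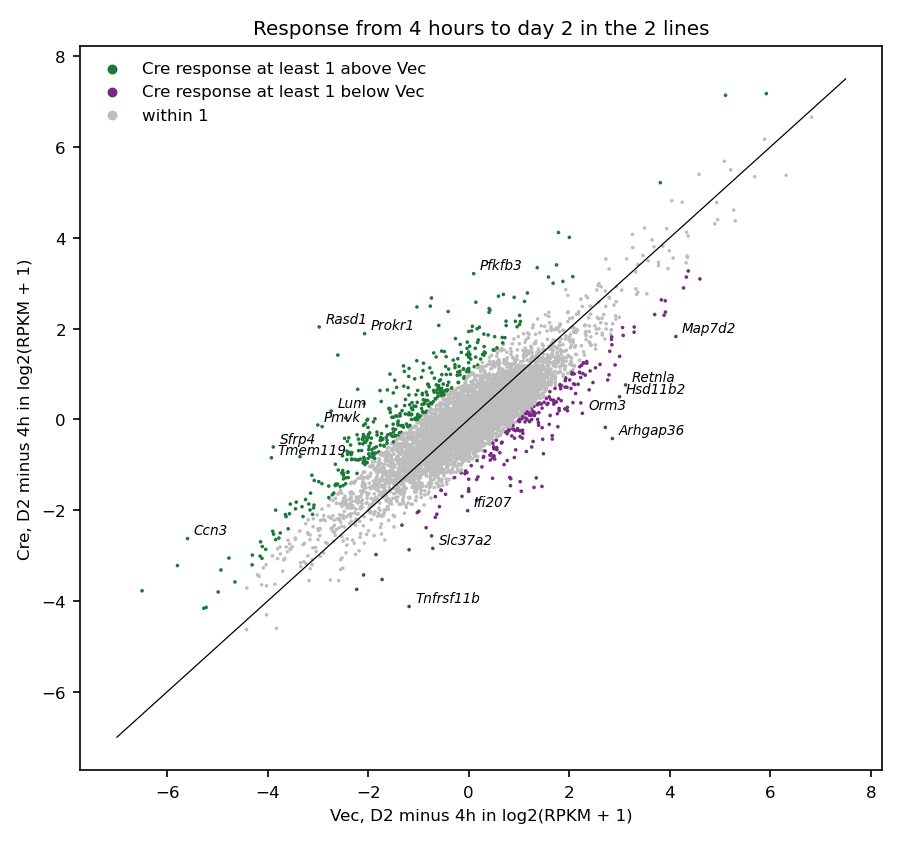
Difference in log2(RPKM + 1), D2 minus 4h, in the Vec line (horizontal) and the Cre line (vertical) for 12420 genes, 1 point a gene and 1 library per line and time. The line marks equal responses: 407 genes lie at least 1 above it (green), with Rasd1 and Prokr1 in the upper left, and 226 at least 1 below it (purple), with Map7d2 and Arhgap36 on the right.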

How the data were processed

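Poly-A RNA was sequenced in 8 libraries, 1 for each of 2 genotypes at each of 4 times, and the 22 ChIP samples of the 30 were not analysed here. Per the file headers, the authors deposited a read count and an RPKM value for each RefSeq transcript accession. Per the submitters' processing notes CASAVA 1.8.2, SICER and mm9 were used; no source used here names the aligner or the read counter. Total reads, from 7.71 to 28.9 M a library, and transcript lengths were recovered by dividing the count by the RPKM. Of 29082 accessions, 28436 (97.8%) matched a symbol in RefSeq's gene table of GRCm38.p6, used for names; for 3760 symbols with several accessions, the accession with most reads in all 8 libraries together was taken.

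The deposited RPKM values were compared as log2(RPKM + 1), with a pseudocount of 1, where the RPKM reached 1 in either library, and a gene was called at a difference of 1. The deposited counts gave the ratio intervals (SciPy 1.17.1), and a floor of 3 reads per library gave the bound for genes at 0. That bound lies above the lower end of the interval of the same gene. The interval calculation was tested on simulated counts that held counting error alone, so this says nothing of variation between libraries. No p-value was computed. Scaling alternatives used edgeR 4.0.16 (TMM) and DESeq2 1.42.0 (size factors) in R 4.3.3; other alternatives changed the pseudocount, the filter, the accession and the depth.

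The comparison, the 35 gene lists (657 genes, 654 of them used) and the naming rule were chosen with earlier results of these data known. The rule named Nr3c1, the 14 largest differences each way among genes with at least 20 reads in the higher library, the 3 furthest members of a list each way, and the 8 largest differences between lines each way, the sets of 14 and of 8 without symbols of non-coding or uncharacterised loci, and the 10 highest levels at each time. Further list members in the text were chosen after their values were seen. The courses over 4 times share the compared libraries and are values only.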

Additional observations from a re-analysis of the deposited data

Results flagged for a closer look

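In 13 genes the step from 4 hours to day 2 passed 2-fold in opposite directions in the 2 lines, 8 of them higher in Cre and lower in Vec and 5 lower in Cre and higher in Vec; the difference was not tested, since each group is 1 library. Of these, 9 were set aside by symbol as non-coding or uncharacterised loci and are not named. They had at most 21 reads in any of the 4 libraries, and 4 of them were higher in Cre. The other 4 genes were all higher in Cre. Rasd1, a Ras-like G protein, had an RPKM of 4.76 at Cre D2 and 0.404 at Cre 4h, against 1.14 at Vec D2 and 15.8 at Vec 4h, a response 5.01 higher in Cre. Prokr1, a prokineticin receptor, had 4.95 at Cre D2 and 0.608 at Cre 4h, against 1.25 at Vec D2 and 8.45 at Vec 4h, a response 3.96 higher in Cre. Gas7 had 16.7 at Cre D2 and 6.83 at Cre 4h, against 6.37 at Vec D2 and 17.1 at Vec 4h, a response 2.48 higher. Cpxm1 had 5.43 at Cre D2 and 2.09 at Cre 4h, against 0.687 at Vec D2 and 3.10 at Vec 4h, a response 2.34 higher. For Gas7 the levels at D0 were 11.0 in Cre and 11.96 in Vec, between the values that followed.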

How the results depend on the processing

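Of the genes listed or named, none past 2-fold changed sign under the alternatives tried, nor did any list median past 1 in size. Some smaller medians did: that of Wnt pathway genes was 0.01 with an RPKM of at least 5, against -0.20 as reported, and those of ribosome biogenesis genes, endoplasmic reticulum genes and 3 marker lists also crossed 0. Of these marker lists, that of macrophages had a median of 0.70 as reported, from 1 compared gene, and -0.004 with no filter. With a pseudocount of 5, genes at least 2-fold higher were 281 in Cre and 506 in Vec, genes at least 2-fold lower 443 in Cre and 654 in Vec, and genes whose Cre response lay at least 1 above or below that of Vec 142 and 54. With a pseudocount of 0.1 these last counts were 723 and 503, and with an RPKM of at least 5 the count below was 150. Scaling bears on the split in both lines. Relative to the reads of the chosen accessions 853 genes were higher and 798 lower in Cre, against 722 and 888 as reported. TMM kept more genes lower than higher in Cre, with 688 higher and 906 lower, as did the median of ratios with 662 and 927. TMM gave 922 genes higher and 1390 lower in Vec and 551 and 163 for the Cre response above and below that of Vec, and the median of ratios 867 and 1438 in Vec and 562 and 161 between lines. Centring each response on its median, an alternative chosen after seeing the data, gave 661 higher and 937 lower in Cre. In Vec it gave 803 higher and 1485 lower, and between lines 584 and 146. Of 239 called genes among those listed or named, 165 passed 2-fold with a pseudocount of 5 and 237 with Cre D2 thinned to the depth of Cre 4h. Scaling by the reads of the chosen accessions moved the median of all genes to 0.12 in Cre and 0.24 in Vec. Among all 1610 called genes, 89 had a counting interval that held a ratio of 1. No paired analysis was possible because each group holds 1 library, and for the same reason none could be left out.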

Other observations

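Some gene families outside the lists, taken whole by symbol after their values had been seen and given with no test, differed between Cre D2 and Cre 4h. Genes that make hyaluronan and its sugar precursors were lower in 4 of 8 compared and higher in none, with a median difference of -1.75. Ugdh, which makes UDP-glucuronate, had an RPKM of 73.6 at Cre D2 and 466 at Cre 4h, Uap1 29.0 at Cre D2 and 209 at Cre 4h, Gfpt2 8.59 at Cre D2 and 66.3 at Cre 4h, and the synthase Has1 2.25 at Cre D2 and 25.2 at Cre 4h. Has2 stayed within 2-fold, with 23.5 at Cre D2 and 43.3 at Cre 4h. These were 4 hour peaks: Ugdh had 69.1, 466, 73.6 and 59.1 over D0, 4h, D2 and D7 in the Cre line.

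Peroxins, which build peroxisomes, were higher in 7 of 16 and lower in none, led by Pex11a, with 8.54 at Cre D2 and 1.03 at Cre 4h, and Pex16, with 20.9 at Cre D2 and 4.08 at Cre 4h. Interferon-inducible GTPases were lower in 7 of 10 and higher in none, with Irgm1 at 12.2 at Cre D2 and 75.7 at Cre 4h and Gbp2 at 6.11 at Cre D2 and 40.1 at Cre 4h. Integrin subunits, which tie cells to matrix, were lower in 6 of 13 and higher in 1: Itgav had 20.3 at Cre D2 and 55.5 at Cre 4h, while Itga6, which pairs into receptors for laminin, had 11.2 at Cre D2 and 4.38 at Cre 4h. Genes of MHC class I and class II were lower in 6 of 11 and higher in none, with H2-K1 at 46.9 at Cre D2 and 147 at Cre 4h. Of 83 cytosolic ribosomal protein genes and their close paralogs 1 was higher and 2 were lower, with a median of -0.02 in Cre and 0.33 in Vec. The gene higher, Rpl19, had 31 reads at Cre D2 and 1 read at Cre 4h. Levels in this family were uneven: Rpl8 had 584 at Cre D2 and 613 at Cre 4h, but Rpl11 2.22 at Cre D2 and 2.18 at Cre 4h. How reads that match several copies were counted is not given, so single values and counts for this family are uncertain. Of 77 mitochondrial ribosomal protein genes 3 were higher and none lower, beside 5.92% and 7.28% of all genes. Their median was 0.33 in Cre and 0.70 in Vec. The microsomal glutathione transferases Mgst1 and Mgst3 had 238 and 49.6 at Cre D2, against 45.4 and 6.13 at Cre 4h, while 6 of the 15 members of the wider family were lower, among them Gstm2 with 10.7 at Cre D2 and 37.4 at Cre 4h.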
